A study of Mus musculus with 15 samples.

Results

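Cathepsins and legumain are the proteases that digest proteins in endosomes and lysosomes. The 10 genes described here were Lgmn, Ctsl, Ctsb, Ctss, Ctsc, Ctsz, Ctsh, Ctsd, Ctse and Ctsa, out of 19933 genes measured. They were chosen by symbol, from probe sets annotated to 1 of these symbols alone. Where a gene had several such probe sets, the one with the highest mean over the 15 arrays was to be selected. That mean is the measured value in the rule, and it chose nothing here, since each gene had exactly 1 such probe set. No filter on low values was applied, and all 10 were tested. The genes were listed with results of these arrays known, so their adjusted p-values set each difference against the spread between arrays and are not independent support.

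The cells were G1E, a mouse line of early red cell precursors that lacks GATA1, a transcription factor without which red cells do not mature. Into these cells GATA1-ER had been put, a fusion with a part of the estrogen receptor that keeps it inactive until estradiol is added. There were 5 lines: 1 with the wild type fusion (WT) and 4 in which its GATA1 part had 1 amino acid changed, R216Q, R216W, D218G or D218Y. Both residues belong to the N-terminal zinc finger of GATA1, a contact surface for DNA and for the cofactor FOG1. All 15 cultures, 3 biological replicates of each line, had received 100 nM estradiol for 24 hours, so wild type here means induced wild type, and untreated cells were not analysed here. The number of separate transductions behind a line is not stated in the labels. The mutation and the line that carries it therefore cannot be told apart, and the p-values cover the spread of these cultures alone.

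RNA was measured on Affymetrix arrays, and values are log2 RMA values (background-corrected, normalized and summarised by probe set), so a difference of 1 is a 2-fold change. Array medians lay between 6.24 and 6.41. Within D218G, replicate 3 had the lowest median, 6.24 against 6.37 and 6.40. The D218Y medians were 6.24, 6.29 and 6.26, below those of all WT, R216Q and R216W arrays. The Gata1 transcript read between 12.05 and 12.38 on every array, with line means of 12.36 in WT, 12.15 in R216Q, 12.25 in R216W, 12.35 in D218G and 12.07 in D218Y. By limma it was lower than in WT in R216Q (-0.21, adjusted p = 0.000108), R216W (-0.11, adjusted p = 0.022) and D218Y (-0.29, adjusted p = 1.12e-06). D218G did not pass (adjusted p = 0.961). The part of these differences in the values of the proteases was not tested. The mean over 10 measured erythroid markers was 11.56 in each WT array and 11.15 in each R216Q array. The lowest array was at 11.33 in R216W, 11.19 in D218G and 9.97 in D218Y. Gata1 itself is among these markers. Their falls in D218Y were uneven, largest for Slc4a1 (-5.60) and Alas2 (-3.18) and smaller for Klf1 (-0.28), with a median of -0.79. A level from whole cultures cannot tell fewer cells that make a transcript from less transcript per cell. A probe set's level is compared across lines and not with that of another single gene. It is set against the array medians only where a gene is said to read low.

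Cathepsins are made as inactive precursors, tagged with mannose 6-phosphate in the Golgi and carried to the acid lysosome, where removal of a propeptide switches them on. Cathepsins B, C, H, L, S and Z use a cysteine in the active site, D and E a pair of aspartates, and A a serine. Legumain is a cysteine protease of another family that cuts after asparagine and can cut the chains of cathepsins B, H and L into their mature forms. A maturing red cell loses its organelles, lysosomes among them, and cathepsin E is found in red cell precursors and at the membrane of red cells.

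For a view of the regulatory sequence, RefSeq promoter windows (GRCm38.p6, the 250 bases before a transcript start) were available for 7 of the 10 genes, in 9 windows. They were searched on both strands for the GATA motif (GATA with A or T before it and A or G after it), for the E-box CACGTG and for its longer form TCACGTGA, which holds the E-box and is the core of the motif described for TFEB and TFE3, regulators of lysosomal genes. Lgmn, the gene with the widest range across lines, has 2 windows, and the one upstream of the whole gene (chr12:102439729-102439978, minus strand) holds none of these motifs. Ctsz holds 2 GATA motifs (chr2:174439040-174439289, minus strand), in capitals as they read on this strand. The longer E-box, in capitals, stands in Ctsd (chr7:142387908-142387937, minus strand) and in the second Ctsa window (chr2:164833743-164833772, plus strand), which lies inside the gene at an alternative start. The 4 sequences are printed 5′ to 3′ to show where these letters stand.
Lgmn: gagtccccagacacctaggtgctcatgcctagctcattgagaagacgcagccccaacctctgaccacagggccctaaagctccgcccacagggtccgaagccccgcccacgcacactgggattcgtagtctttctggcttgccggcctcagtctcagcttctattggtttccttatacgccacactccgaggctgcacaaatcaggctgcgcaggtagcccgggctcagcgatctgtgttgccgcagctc
Ctsz: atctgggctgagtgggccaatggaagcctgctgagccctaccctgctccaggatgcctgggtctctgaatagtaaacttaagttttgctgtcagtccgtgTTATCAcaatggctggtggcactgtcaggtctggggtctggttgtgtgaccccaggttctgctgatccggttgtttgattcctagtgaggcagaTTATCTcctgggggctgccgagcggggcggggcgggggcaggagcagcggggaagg
Ctsd: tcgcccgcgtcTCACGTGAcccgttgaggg
Ctsa: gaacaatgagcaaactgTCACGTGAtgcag
Over all 32851 windows of this length, 26.5% held a GATA motif, 6.02% the E-box and 0.785% the longer form. The longer form began 99 bases before the Ctsd start and 13 bases before the second Ctsa start. The E-box alone was also elsewhere in the Ctsd window, in the Ctsl window and in the Lgmn window inside the gene. That Lgmn window held a GATA motif as well. No motif was found in the Ctsc, Ctss and first Ctsa windows. The Ctsl and Ctsc windows also overlap their genes, so they are not upstream of the whole gene. A match is a description of the letters only.

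The protease genes did not move as a block. Lgmn rose in all 4 mutants and Ctsb fell in all 4, while Ctsl rose and Ctsc fell in R216Q, D218G and D218Y but not in R216W. The other 6 genes differed from wild type by at most 0.43 on the log2 scale. In R216Q, 2 members were higher than wild type by limma with Benjamini-Hochberg adjustment over all genes (11.8% of all genes were) and 3 were lower (9.65%), 5 of 10 against 21.5% of all genes. In R216W 1 was higher (9.36%) and 3 lower (7.23%), 4 of 10 against 16.6%. In D218G 4 were higher (10.3%) and 3 lower (7.77%), 7 of 10 against 18.1%. In D218Y 3 were higher (20.3%) and 3 lower (24.2%), 6 of 10 against 44.4%. The D218G count was 4 when the arrays of D218G and WT alone were fitted. The 4 comparisons share the same 3 WT arrays. Among the 5 lines, 8 of the 10 genes differed by limma's F test, against 41.9% of all genes. Between mutants, 6 members differed in R216W against R216Q (16.9% of all genes), 6 in D218G against R216Q (13.4%) and 5 in D218Y against R216Q (31.8%). There were 6 in D218G against R216W (22%), 8 in D218Y against R216W (36.3%) and 5 in D218Y against D218G (33%). The 2 genes that the F test did not call were Ctsh (adjusted p = 0.288) and Ctss (adjusted p = 0.133).

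**Figure D1:**
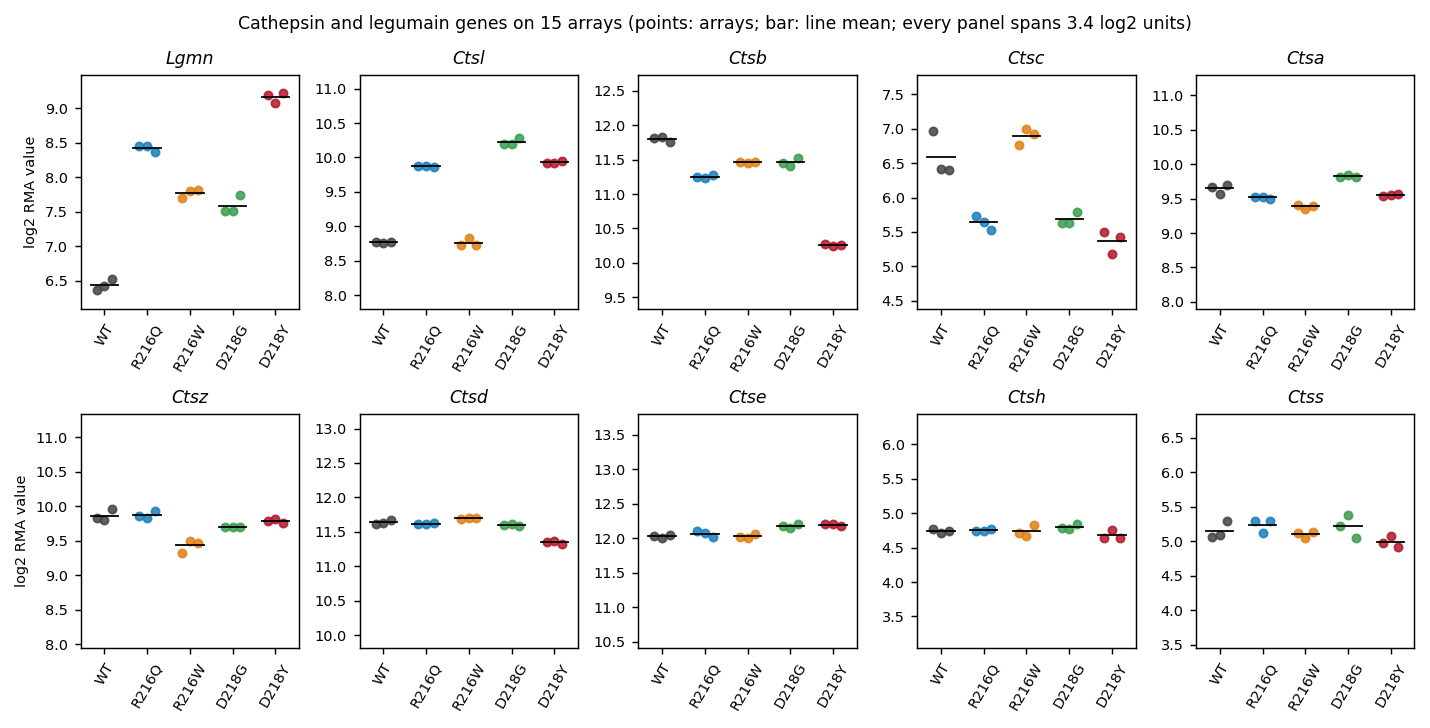
Each panel plots 1 gene, with the log2 RMA value on the vertical axis and the 5 lines on the horizontal axis. Points are arrays, bars are line means (n = 3), and every panel spans the same number of log2 units. Lgmn runs from 6.36 in a WT array to 9.22 in a D218Y array, and Ctsh and Ctss stay nearly level.

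Legumain had the widest range of the 10 genes. Lgmn read 6.36, 6.42 and 6.52 in WT arrays, 7.52, 7.50 and 7.75 in D218G and 7.70, 7.80 and 7.81 in R216W. It read 8.46, 8.46 and 8.37 in R216Q and 9.20, 9.08 and 9.22 in D218Y. Every mutant array was above every WT array, and only the D218G and R216W arrays overlapped each other. Against wild type, Lgmn rose by 2.73 ± 0.07 in D218Y (SE, n = 3 per line, adjusted p = 1.88e-13), a 6.65-fold rise. The rise was 2.00 in R216Q (3.99-fold, adjusted p = 8.5e-11), 1.34 in R216W (2.53-fold, adjusted p = 3.55e-09) and 1.16 in D218G (2.23-fold, adjusted p = 2.89e-08), each with the same SE. The order of the lines was thus WT, D218G, R216W, R216Q and D218Y. Each step in it passed the test except that from D218G to R216W (0.18, adjusted p = 0.074). Without replicate 3 of D218G, the highest array of its line for Lgmn, that step was 0.26 and passed (adjusted p = 0.00382).

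The 5 genes whose values over the 15 arrays were most like those of Lgmn were Papss2 (Pearson r = 0.99), Gask1b (0.99), Slc35f5 (0.99), Maoa (0.98) and Kit (0.98). They were sought among the 912 genes whose line means ranged over at least 1. The arrays fall into 5 lines, so r mostly reflects the order of 5 line means and carries no p here. Kit, the receptor for stem cell factor, rose by 2.03 ± 0.04 in D218Y, 1.45 ± 0.04 in R216Q, 0.84 ± 0.04 in R216W and 0.55 ± 0.04 in D218G. Gask1b, a Golgi-associated kinase relative, rose by 3.59 ± 0.09 in D218Y and by 1.10 ± 0.09 in D218G. Maoa, monoamine oxidase A, rose by 2.10 ± 0.08 in D218Y and 0.71 ± 0.08 in D218G. All 5 genes were above wild type in every mutant, as Lgmn was. That follows from choosing them by likeness to Lgmn on these same arrays, so it is no separate support.

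Cathepsin L, the endopeptidase of the lysosome that also trims invariant chain in some cells, separated R216W from the other mutants. Ctsl read 8.77, 8.75 and 8.78 in WT arrays and 8.74, 8.83 and 8.73 in R216W. It read 9.88, 9.88 and 9.86 in R216Q, 9.91, 9.93 and 9.95 in D218Y and 10.20, 10.19 and 10.28 in D218G. Of the R216W arrays 2 read just below the WT arrays and 1 just above them, so the groups were not apart, and all arrays of the other 3 mutants were more than 1 unit higher than both. Ctsl rose by 1.46 ± 0.04 in D218G (2.74-fold), by 1.16 ± 0.04 in D218Y (2.24-fold) and by 1.11 ± 0.04 in R216Q (2.15-fold), with adjusted p from 3.1e-12 to 8.5e-11. In R216W the 95% interval of the difference from wild type was -0.08 to 0.08 (adjusted p = 0.997). The difference between the 2 mutants of R216 was itself tested: R216W was lower than R216Q by limma (-1.11 ± 0.04, adjusted p = 1.05e-10). D218G was above R216Q (0.35 ± 0.04, adjusted p = 1.03e-05) and above D218Y, which was at -0.29 ± 0.04 from it (adjusted p = 1.5e-05). D218Y and R216Q did not separate (0.06, 95% interval -0.02 to 0.14, adjusted p = 0.247).

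The genes most like Ctsl over the 15 arrays were Tcn2 (r = 0.96), Phlda1 (0.93), Egfl7 (0.92), Ppard (0.92) and Pfkm (0.91), chosen in the same way. They rose in R216Q, D218G and D218Y, as genes chosen by likeness to Ctsl would. In R216W they fell, while the difference of Ctsl from wild type did not pass the test there. Tcn2, the carrier of vitamin B12, rose by 1.39 ± 0.07 in D218G and fell by 0.40 ± 0.07 in R216W (adjusted p = 0.000466). Phlda1 rose by 1.13 ± 0.05 in D218G and fell by 0.82 ± 0.05 in R216W. Pfkm, the muscle form of phosphofructokinase, rose by 1.16 ± 0.04 in D218G and fell by 0.73 ± 0.04 in R216W.

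**Figure D2:**
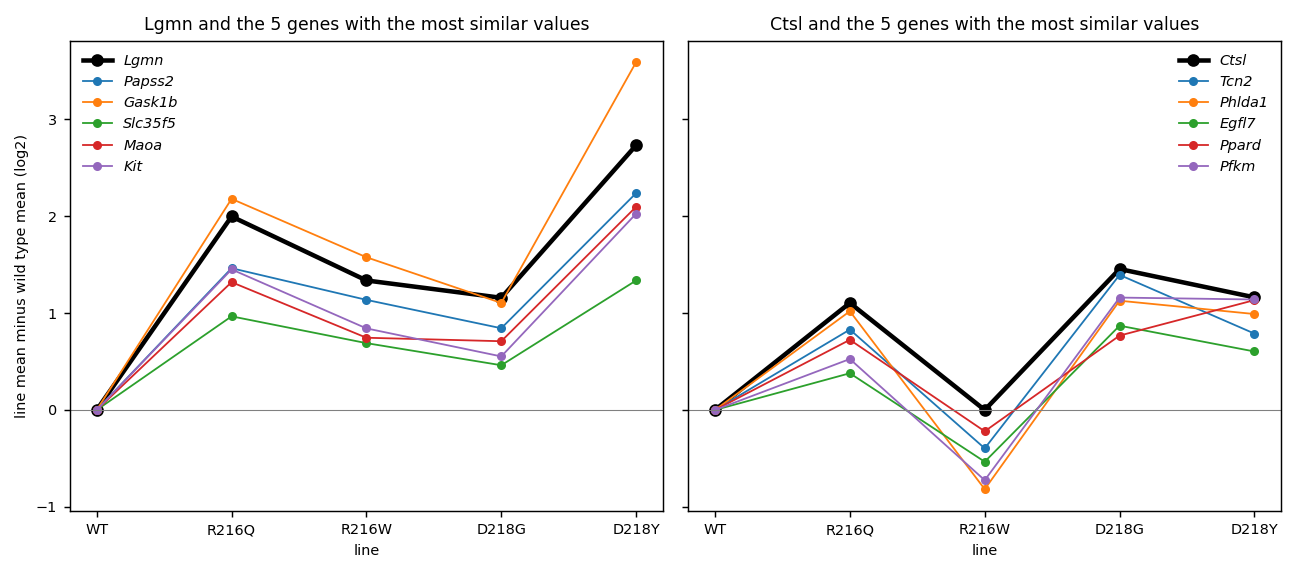
The vertical axis is the line mean minus the wild type mean (log2) and the horizontal axis the 5 lines. Thick lines are Lgmn (left) and Ctsl (right), thin lines the 5 genes most like each. Lgmn and its set peak in D218Y, where Lgmn is at 2.73, while the genes like Ctsl lie below wild type in R216W.

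Cathepsin B, a cysteine protease that acts as an endopeptidase and also removes dipeptides from the C-terminus of a chain, moved against legumain. Ctsb read 11.81, 11.82 and 11.75 in WT arrays, 11.47, 11.46 and 11.46 in R216W and 11.45, 11.41 and 11.52 in D218G. It read 11.25, 11.23 and 11.27 in R216Q and 10.28, 10.25 and 10.26 in D218Y. Every mutant array was below every WT array, and the D218Y arrays stood well below the rest. Ctsb fell by 1.54 ± 0.04 in D218Y (adjusted p = 1.55e-13), that is, it fell by 65.6%. The change was -0.55 in R216Q (adjusted p = 5.26e-08), -0.34 in R216W (adjusted p = 1.07e-05) and -0.34 in D218G (adjusted p = 1.13e-05). R216W and D218G did not separate (95% interval of the difference -0.08 to 0.08, adjusted p = 0.999), and every other pair of lines did. The line with the highest Lgmn mean had the lowest Ctsb mean and the line with the lowest Lgmn mean the highest Ctsb mean.

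Cathepsin C is the dipeptidyl peptidase that activates the serine proteases of mast cell, neutrophil and cytotoxic granules. Ctsc read 6.97, 6.41 and 6.39 in WT arrays and 6.76, 6.99 and 6.92 in R216W. It read 5.74, 5.65 and 5.54 in R216Q, 5.64, 5.63 and 5.79 in D218G and 5.50, 5.18 and 5.42 in D218Y. WT and R216W arrays overlapped at the top, and the other 3 mutants lay below both without overlap. Ctsc fell by 1.23 ± 0.13 in D218Y (adjusted p = 1.52e-06), by 0.95 ± 0.13 in R216Q (adjusted p = 6.24e-05) and by 0.91 ± 0.13 in D218G (adjusted p = 0.00014). R216W was at 0.30 ± 0.13 from wild type (adjusted p = 0.163). That value rests on replicate 1 of WT, which read 6.97: without it R216W was 0.49 higher and passed (adjusted p = 0.00297). R216W was above R216Q by 1.25 ± 0.13 (adjusted p = 6.03e-06). The 3 low lines did not separate from each other (adjusted p from 0.0773 to 0.927). All their arrays read below the array medians, and RMA compresses differences of dim probe sets. Small differences among these lines would thus not be seen, and the falls may be understated.

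**Figure D3:**
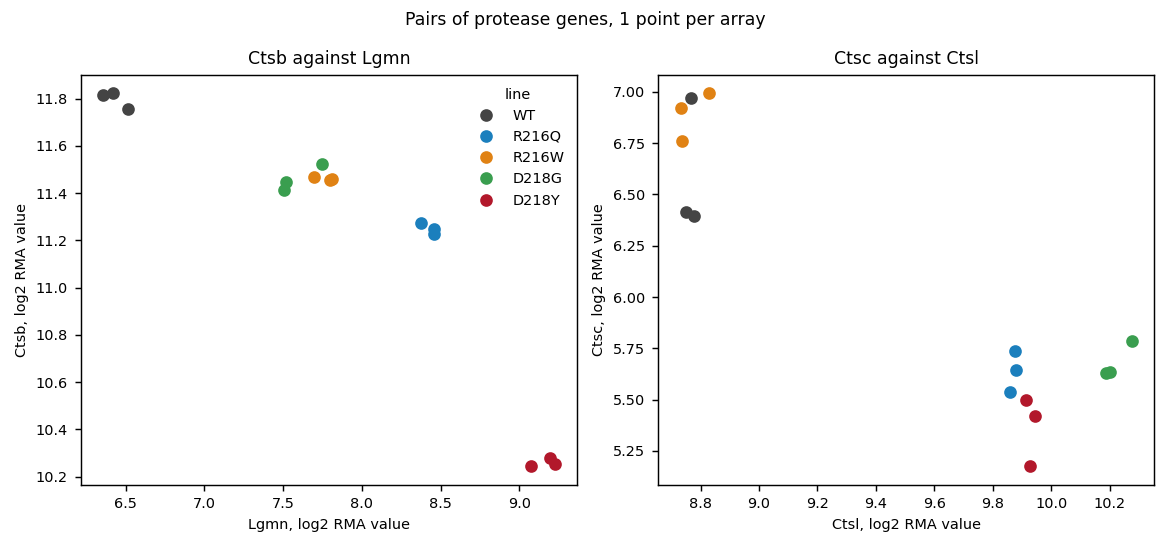
Each point is 1 array, coloured by line, with the log2 RMA value of 1 gene on each axis. On the left, Ctsb falls from 11.82 to 10.25 as Lgmn runs from the WT to the D218Y arrays. On the right, the WT and R216W arrays share a corner with low Ctsl and high Ctsc, apart from the other 9 arrays.

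Cathepsin Z is a carboxypeptidase, and it was lowest in R216W. Ctsz read 9.83, 9.79 and 9.96 in WT arrays, 9.85, 9.83 and 9.94 in R216Q and 9.79, 9.82 and 9.76 in D218Y. It read 9.70, 9.70 and 9.69 in D218G and 9.32, 9.50 and 9.47 in R216W. The R216W arrays were below all others, the D218G arrays came next, and the WT arrays overlapped both the R216Q and the D218Y arrays. Ctsz fell by 0.43 ± 0.05 in R216W (adjusted p = 3.18e-05) and was also lower there than in R216Q (-0.44, adjusted p = 2.3e-05), D218G and D218Y. In D218G it was at -0.165 ± 0.05 from wild type (adjusted p = 0.0427). That call was lost when any 1 of replicates 1 and 3 of WT or any 1 D218G array was left out, with adjusted p up to 0.197. R216Q and D218Y did not pass against wild type (adjusted p = 0.935 and 0.264).

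The transcripts of cathepsin H, an aminopeptidase, and of cathepsin S, which trims invariant chain in antigen-presenting cells, read low on every array. Ctsh lay between 4.63 and 4.85 over the 15 arrays and Ctss between 4.91 and 5.39, all below the array medians. Neither passed against wild type in any mutant. Between mutants, Ctss was lower in D218Y than in R216Q (-0.24 ± 0.08, adjusted p = 0.0371), a call that was lost when replicate 1 or 3 of either line was left out. RMA compresses differences of dim probe sets, so small changes of these genes would not be seen.

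Cathepsin D is the main aspartic protease of lysosomes. Ctsd read 11.61, 11.63 and 11.68 in WT arrays, 11.62, 11.61 and 11.62 in R216Q, 11.69, 11.70 and 11.70 in R216W and 11.60, 11.61 and 11.59 in D218G. The D218Y arrays, at 11.35, 11.36 and 11.33, were below all of these. Ctsd fell by 0.29 ± 0.03 in D218Y (adjusted p = 1.72e-06), and D218Y was also below each of the other mutants (adjusted p from 2.92e-07 to 1.33e-05). No other mutant passed against wild type (-0.02 in R216Q, 0.06 in R216W and -0.04 in D218G). D218G was below R216W by 0.10 (adjusted p = 0.0367), and the call was lost without any 1 of these 6 arrays (adjusted p from 0.0647 to 0.0916).

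Cathepsin E, the aspartic protease of red cell precursors, moved the other way from Ctsd in D218Y. Ctse read 12.03, 12.01 and 12.05 in WT arrays, 12.10, 12.08 and 12.02 in R216Q and 12.01, 12.01 and 12.06 in R216W. It read 12.19, 12.16 and 12.21 in D218G and 12.21, 12.21 and 12.18 in D218Y. All D218 arrays were above all WT and R216 arrays. Ctse rose by 0.15 ± 0.03 in D218G (adjusted p = 0.00546) and by 0.17 ± 0.03 in D218Y (adjusted p = 0.00105), while R216Q (0.04) and R216W (-0.00) did not pass. Both D218 lines were also above both R216 lines (adjusted p from 0.0011 to 0.0427). The call of D218G against R216Q, the largest of these p-values, was lost without replicate 2 or 3 of R216Q or without any 1 D218G array (adjusted p from 0.0541 to 0.182). That of D218Y against R216Q (0.13, adjusted p = 0.0101) was lost without replicate 3 of R216Q (adjusted p = 0.0531). The D218G call against wild type was lost when those 6 arrays alone were fitted (adjusted p = 0.0703).

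Cathepsin A is a serine carboxypeptidase that also shields lysosomal beta-galactosidase and neuraminidase from breakdown. Ctsa read 9.67, 9.57 and 9.70 in WT arrays, 9.53, 9.53 and 9.50 in R216Q and 9.41, 9.35 and 9.40 in R216W. It read 9.81, 9.85 and 9.82 in D218G and 9.53, 9.55 and 9.57 in D218Y. The D218G arrays were above all others and the R216W arrays below all others, with WT nearer the top. Ctsa fell by 0.26 ± 0.04 in R216W (adjusted p = 0.000154) and by 0.13 ± 0.04 in R216Q (adjusted p = 0.0213), and rose by 0.18 ± 0.04 in D218G (adjusted p = 0.0034). D218Y was at -0.10 ± 0.04 (adjusted p = 0.0527). The R216Q call was lost without replicate 1 or 3 of WT or replicate 3 of R216Q (adjusted p from 0.074 to 0.0988) and in a fit of those 6 arrays alone (adjusted p = 0.104). In such a fit the D218G call was also lost (adjusted p = 0.0727). D218G was above R216W by 0.44 ± 0.04 (adjusted p = 5.02e-07), and R216Q did not separate from D218Y (adjusted p = 0.505).

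The D218G results were also computed without replicate 3, the array with the lowest median of that line. The differences from wild type were 1.08 for Lgmn, 1.43 for Ctsl, -0.37 for Ctsb, -0.96 for Ctsc, 0.18 for Ctsa and 0.14 for Ctse, and all 6 passed. Ctsz, at -0.16, did not (adjusted p = 0.0791).

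**Figure D4:**
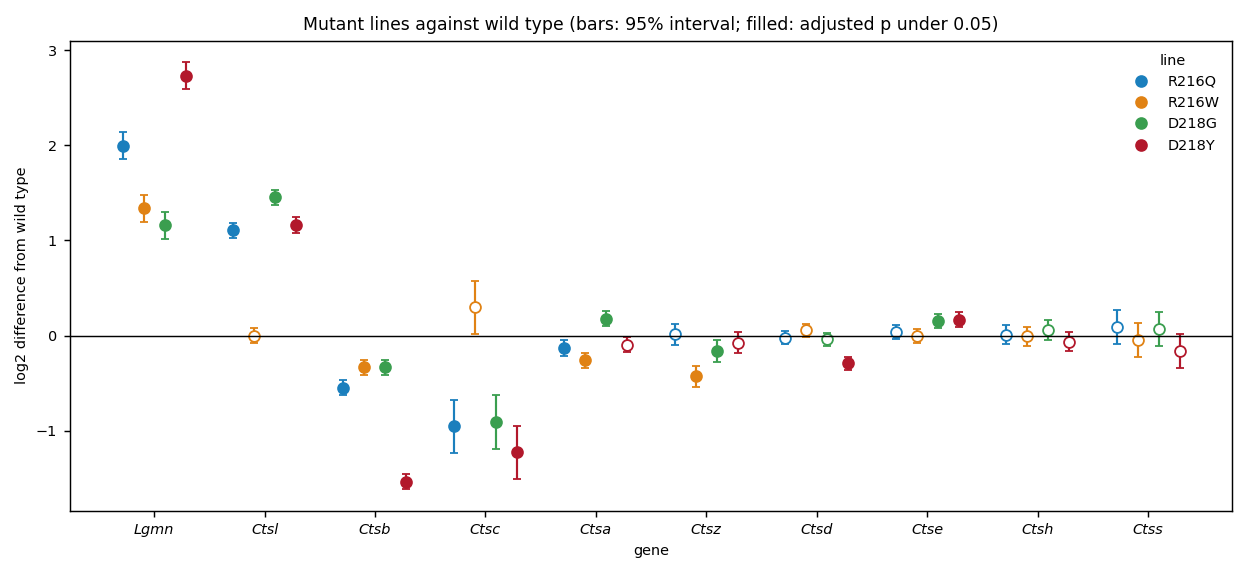
The vertical axis is the log2 difference from wild type and the horizontal axis the 10 genes, with 1 point per mutant. Bars are 95% intervals from limma, and filled points have an adjusted p under 0.05. Lgmn is above 0 and Ctsb below 0 in all 4 mutants, and Ctsl and Ctsc are unfilled in R216W alone.

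The genes that act with these proteases were described from lists of their known roles. Of 14 further cathepsins 12 were measured, many of them genes of the placenta, and Ctso alone differed from wild type. Ctso rose by 0.31 ± 0.09 in R216W (adjusted p = 0.0224) and by 0.26 ± 0.09 in R216Q (adjusted p = 0.0412). That is 1 of 12 in each of these lines, against 16.6% and 21.5% of all genes. Of 10 inhibitors, 8 were measured, with 1 called in R216Q, 1 in R216W, 2 in D218G and 3 in D218Y. Over all genes 21.5%, 16.6%, 18.1% and 44.4% were called in these lines. Cystatin B (Cstb), which blocks cysteine cathepsins in the cytosol, rose in all 4 mutants, by 0.41 ± 0.07 in D218Y (adjusted p = 0.000168), 0.33 in R216W, 0.30 in R216Q and 0.29 in D218G. Cst7, cystatin F, which restrains cathepsin C, fell by 0.25 ± 0.07 in D218G (adjusted p = 0.0151). In D218Y, Serpinb6a fell by 0.45 ± 0.10 (adjusted p = 0.00244) and Cst6 fell by 0.17 ± 0.07 (adjusted p = 0.0451). The other inhibitors, Cst3, Stfa2, Stfa3 and Serpinb1a, did not pass in any mutant.

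Of 36 other lysosomal hydrolases 32 were measured. In R216Q 11 rose and 6 fell, in R216W 6 rose and 5 fell, in D218G 10 rose and 3 fell, and in D218Y 17 rose and 7 fell. Over all genes 11.8% were higher and 9.65% lower in R216Q, 9.36% and 7.23% in R216W, 10.3% and 7.77% in D218G, and 20.3% and 24.2% in D218Y. Their median difference was 0.24 in D218Y, where the median over all genes was -0.07, and between 0.04 and 0.09 in the other mutants, where it was between -0.02 and -0.01. Scpep1, a carboxypeptidase related to cathepsin A, rose by 1.32 ± 0.07 in D218Y (adjusted p = 6.73e-10), 0.52 in R216Q and 0.44 in D218G. Gusb, beta-glucuronidase, rose in all 4 mutants, by 0.84 ± 0.04 in D218Y and by 0.19 to 0.24 in the others. Acp5, the tartrate-resistant acid phosphatase, fell by 1.26 ± 0.04 in R216W (adjusted p = 6.68e-11), by 0.50 in D218Y and by 0.41 in R216Q, and rose by 0.34 ± 0.04 in D218G (adjusted p = 4.27e-05). Smpd1, acid sphingomyelinase, fell in all 4 mutants, by 0.92 ± 0.04 in D218Y and 0.41 ± 0.04 in D218G. The partners of cathepsin A, named here after their values were seen, were also in this list. Neu1, neuraminidase, rose in R216Q (0.27), D218G (0.34) and D218Y (0.27), while its difference in R216W, -0.10, missed the threshold (adjusted p = 0.137). Glb1, beta-galactosidase, was at 0.17 in D218Y (adjusted p = 0.0281) and passed in no other mutant.

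Of 22 lysosomal membrane proteins 4 rose and 8 fell in R216Q, 4 rose and 6 fell in R216W, 3 rose and 4 fell in D218G, and 8 rose and 11 fell in D218Y. Called in either direction were thus 12, 10, 7 and 19 of the 22, against 21.5%, 16.6%, 18.1% and 44.4% of all genes. Scarb2, the receptor that carries beta-glucocerebrosidase to lysosomes, rose by 0.91 ± 0.06 in R216Q, 0.67 ± 0.06 in R216W and 0.29 ± 0.06 in D218Y. Tpcn1, a calcium-releasing channel, fell by 0.91 ± 0.04 in D218Y (adjusted p = 2.26e-11), 0.65 in R216Q and 0.31 in R216W. Its relative Tpcn2 rose by 0.53 ± 0.07 in D218Y and by 0.23 in both R216Q and D218G. Slc17a5, the sialic acid exporter, fell by 0.69 ± 0.05 in D218Y, 0.17 in D218G and 0.14 in R216Q.

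Of 17 genes for the vacuolar proton pump, which acidifies lysosomes, 16 were measured, with 1 higher and 4 lower in R216Q, 2 and 6 in R216W, 1 and 2 in D218G, and 3 and 7 in D218Y. That is 5, 8, 3 and 10 of the 16, set against the same shares of all genes, and the D218G count is near its share. Atp6v0b fell in all 4 mutants, by 0.48 ± 0.03 in D218Y and 0.14 ± 0.03 in D218G. Atp6ap1 fell by 0.39 ± 0.03 in D218Y, 0.36 ± 0.03 in R216W and 0.12 ± 0.03 in R216Q. Tcirg1 rose by 0.38 ± 0.05 in D218Y and 0.27 ± 0.05 in D218G. Atp6v1h rose by 0.30 ± 0.05 in R216Q (adjusted p = 0.000421) and 0.22 ± 0.05 in D218Y. Of 6 genes that sort enzymes to lysosomes 5 were measured. Igf2r, the large mannose 6-phosphate receptor, fell by 0.54 ± 0.04 in D218G, 0.53 ± 0.04 in R216Q and 0.44 ± 0.04 in D218Y, but rose by 0.30 ± 0.04 in R216W (adjusted p = 8.31e-05). Gnptg, a subunit of the enzyme that begins the mannose 6-phosphate tag, fell by 0.23 ± 0.05 in R216W (adjusted p = 0.00238), 0.17 in R216Q and 0.16 in D218Y. Sort1, sortilin, rose by 1.00 ± 0.06 in D218Y (adjusted p = 5.31e-09), 0.40 in R216W and 0.23 in D218G. Nagpa, which uncovers the mannose 6-phosphate tag, rose by 0.76 ± 0.04 in D218Y, 0.42 in D218G and 0.19 in R216Q.

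**Figure D5:**
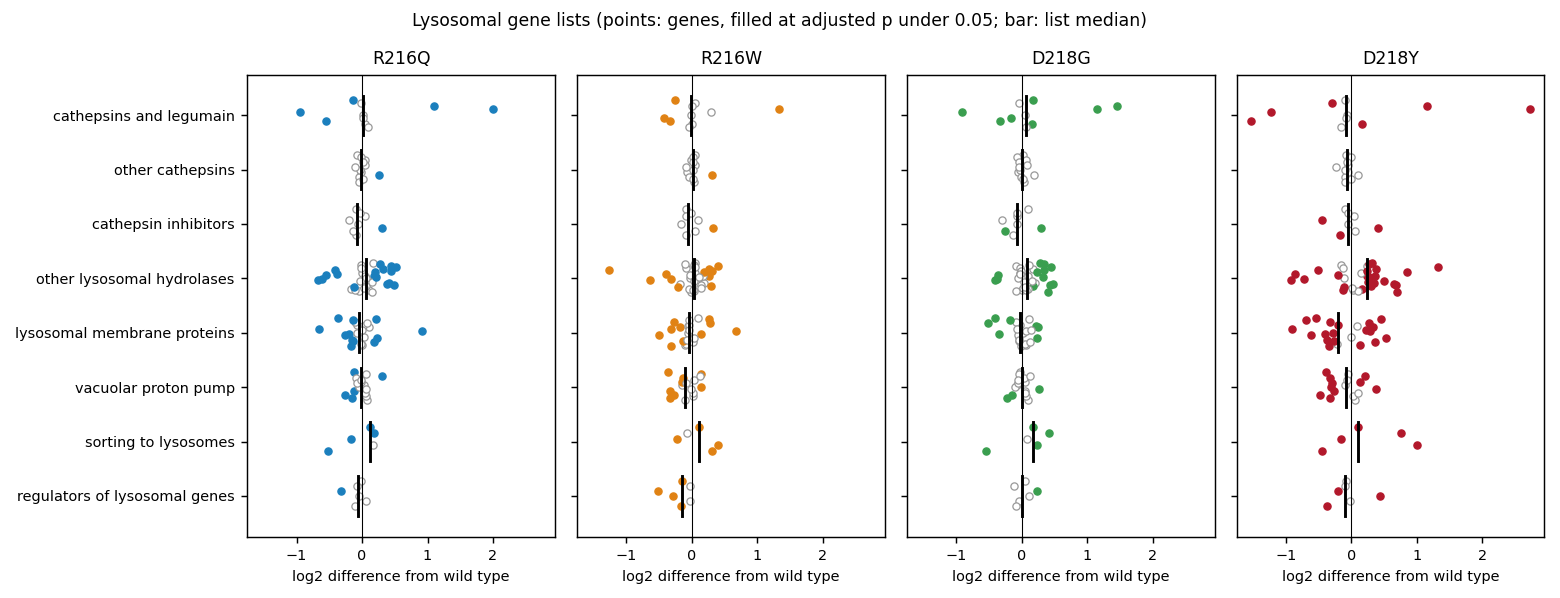
The horizontal axis is the log2 difference from wild type in each mutant, and each row is 1 gene list. Points are genes, filled at an adjusted p under 0.05, and bars are list medians. The median of the other lysosomal hydrolases is at 0.24 in D218Y, and the 10 proteases spread to both sides of 0.

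All 6 listed regulators of lysosomal genes were measured. Tfe3 fell by 0.52 ± 0.04 in R216W (adjusted p = 7.58e-07), by 0.32 ± 0.04 in R216Q and by 0.20 ± 0.04 in D218Y, and rose by 0.23 ± 0.04 in D218G (adjusted p = 0.00125). Tfeb rose by 0.44 ± 0.06 in D218Y (adjusted p = 3.48e-05) and fell by 0.28 ± 0.06 in R216W (adjusted p = 0.00505). Zkscan3, a repressor of lysosomal genes, fell by 0.38 ± 0.04 in D218Y and 0.17 ± 0.04 in R216W, and Flcn, folliculin, fell by 0.14 ± 0.04 in R216W (adjusted p = 0.0276). Mitf and Tfec did not pass in any mutant. Beside them, Ctsa was at -0.26 in R216W, -0.13 in R216Q, -0.10 in D218Y and 0.18 in D218G. Ctsd, the other gene with the longer E-box, had the values 0.06, -0.02, -0.29 and -0.04 in the same lines. Both genes are shown because of that motif, and whether any regulator acts on them was not tested.

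Because lysosomal proteases are abundant in macrophages, mast cells and granulocytes, markers of those cells were measured too. Marker counts stand beside 21.5% of all genes called against wild type in R216Q, 16.6% in R216W, 18.1% in D218G and 44.4% in D218Y. The mean of 16 macrophage markers lay between 5.21 and 5.37 on every array of the 5 lines. Among them Adgre1, Csf1r and Mpeg1 read at most 5.49 on any array, while Marco read up to 6.36. Cd68, itself a lysosomal glycoprotein, read between 7.31 and 7.96, above the array medians. It rose by 0.23 in R216Q, 0.25 in R216W and 0.47 in D218Y, and Mrc1 fell in D218Y. None of 10 granulocyte markers passed against wild type, and of 8 antigen-presenting cell markers H2-Aa alone did, lower in D218Y. Of 8 mast cell markers 4 rose in D218Y, where 20.3% of all genes rose. These were Tpsab1 (3.06 ± 0.06), Ms4a2 (2.46 ± 0.08), Hdc (1.11 ± 0.06) and Cpa3 (0.65 ± 0.07), while Mcpt4 fell by 0.17 ± 0.05. The mean of the 8 per array was 5.89 to 5.97 in D218Y against 5.04 to 5.09 in WT and 5.01 to 5.15 in the other mutants. Hdc also rose in R216Q, by 0.35 ± 0.06. Megakaryocytes arise from a precursor shared with red cells, and some of their markers fell in each mutant. The mean of the 7 measured lay between 7.22 and 7.29 on WT arrays, 6.83 and 6.90 on R216W, 6.75 and 6.79 on D218G, 6.65 and 6.71 on R216Q, and 6.19 and 6.22 on D218Y. Tubb1, a tubulin of platelets, fell by 2.82 ± 0.09 in D218Y, by 2.26 in R216W, by 1.74 in R216Q and by 1.25 in D218G. Gp9, a part of the platelet receptor for von Willebrand factor, fell by 1.93 ± 0.06 in D218Y, by 1.61 in R216Q, by 1.05 in D218G and by 0.53 in R216W. Itgb3 fell in R216Q, D218G and D218Y and Itga2b in D218Y, while Pf4, Ppbp and Vwf passed in no mutant. Of 8 lymphoid and 5 stromal markers, Dntt and Col3a1 passed, both lower in D218Y. The part of the mast cell, megakaryocyte and erythroid markers in the values of the proteases was not tested.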

How the data were processed

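Total RNA from 15 G1E cultures (5 lines, 3 biological replicates each) was measured on Affymetrix mouse arrays. The values the authors deposited are log2 RMA values of probe sets. Partek 6.6 and RMA were used, per the submitters' processing notes, with settings not stated there. Arrays have no counts, so their number limits the precision.

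The deposited log2 values were used unchanged. The platform annotation lists 1 symbol for 21780 of the 28350 probe sets, several for 1618 and none for 4952. Probe sets with 1 symbol gave 19933 genes, each by the probe set with the highest mean where there were several (996 genes). Groups and replicate numbers came from the titles in the labels. No 2 arrays were identical.

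Differences were fitted with limma 3.58.1 in R 4.3.3: 1 mean per line over all 15 arrays, all 10 pairs of lines, eBayes, and Benjamini-Hochberg adjustment over all genes within a comparison (two-sided, calls at an adjusted p under 0.05). Rose and fell mean called. Errors are moderated standard errors. An exact permutation test of 3 against 3 arrays cannot go below p = 0.1 and was not used. The fit was first run on simulated data with independent errors. That run cannot show the effect of deviations that arrays share.

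The 10 genes, the pathway and marker lists and the tests were chosen with earlier results of these data known. Named from each pathway list were the 2 genes with the largest rise and the 2 with the largest fall past the threshold, and any inhibitor or regulator. For Lgmn and Ctsl, the 5 genes with the highest Pearson r over the arrays were named. Promoter sequences came from RefSeq (GRCm38.p6), matched by symbol, and Ctsb, Ctse and Ctsh had no entry. Proteins and genome sequence were not used here.

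Alternatives, tried singly, were normalization by quantiles or by cyclic loess, leaving out genes below the median intensity, fitting the compared lines by themselves, a trended robust eBayes, weights per array, blocking on the replicate number, a threshold of 0.01, averaging the probe sets of a gene, and omitting single arrays.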

Additional observations from a re-analysis of the deposited data

Results flagged for a closer look

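Ctsa, cathepsin A, moved in opposite directions from wild type in D218G and in the R216 lines, and the difference between the mutants itself passed the test. D218G was 0.31 above R216Q (limma, adjusted p = 4.33e-05) and 0.44 above R216W (adjusted p = 5.02e-07), and all 3 D218G arrays were above all 6 R216 arrays. Leaving out each array in turn kept both differences past the threshold, at 0.30 to 0.31 and 0.42 to 0.45. The R216Q fall from wild type was less stable, as given above. So was the D218G rise, which lost its call when the D218G and WT arrays alone were fitted (limma, adjusted p = 0.0727). The R216W fall kept its call under every alternative. The cause of the difference was not tested.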

How the results depend on the processing

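Of 100 differences (10 genes, 10 pairs of lines), none changed direction while called. Among 1470 values under the alternatives 1383 kept their side of the threshold, 58 lost a call and 29 gained one, and 39 values that were not called changed sign. Of 22 calls against wild type 18 were kept under every alternative. The 4 that were not are Ctsa in R216Q and D218G, Ctsz in D218G and Ctse in D218G, and each was lost when the arrays of the 2 lines alone were fitted. Members called in D218G against wild type then numbered 4, not 7. Ctsa in D218Y was gained under several, among them quantile normalization (-0.15, adjusted p = 0.00841) and cyclic loess (-0.13, adjusted p = 0.0186). Members called between D218Y and R216Q numbered 3 in place of 5 at an adjusted p under 0.01, and also without replicate 3 of R216Q.

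Over all genes, fitting the 2 lines alone called 2106 in place of 3601 genes in D218G against wild type, and 1541 in place of 2668 against R216Q. Array weights called 7357 in place of 4283 in R216Q and 5403 in place of 3308 in R216W against wild type. Between mutants they called 5397 in place of 3369 (R216W against R216Q) and 9935 in place of 6343 (D218Y against R216Q). The weights did not fully converge. Of D218Y calls 45.6% were higher than wild type as deposited, 47.8% after quantile normalization and 55% after cyclic loess.

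Deviations from the line means were compared between arrays of different lines. Same-numbered replicates had r from -0.50 to 0.41, above 0.1 in 3 of 30 pairs. Pairs with different numbers had r from -0.41 to 0.54, above 0.1 in 16 of 60. The numbers thus did not mark arrays that deviate together, but some arrays of different lines did deviate together. The fit treats all arrays as independent. With the replicate number as a block, Ctsz in D218G lost its call (adjusted p = 0.0505), as did Ctse in D218G against R216Q (0.0774), Ctss in D218Y against R216Q (0.0626) and Ctsd in D218G against R216W (0.0666). The block changed no other call of a member. The filter on genes above the median intensity left 7 members, so Ctsc, Ctsh and Ctss have no value there.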
